A study of Mus musculus with 36 samples.

Results

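The genotype by MitoQ interaction after TAC asks, gene by gene, whether MitoQ altered the pressure-overloaded heart differently in cSirt4-Tg and in control mice. It is the MitoQ minus vehicle difference in cSirt4-Tg hearts less the same difference in control hearts, on the log2 scale, so a positive value means a higher (or less lowered) MitoQ difference in cSirt4-Tg hearts. Its members are the 24 libraries titled TAC with MitoQ or vehicle, out of 36 in the series, and all 16275 genes tested. The 4 groups of 6 mice are cSirt4-Tg mice with TAC and MitoQ (Tg-TAC-MQ), cSirt4-Tg mice with TAC and vehicle (Tg-TAC), control mice with TAC and MitoQ (Con-TAC-MQ) and control mice with TAC and vehicle (Con-TAC). All had TAC surgery, and each library is total RNA of a whole heart from the mouse. The labels name neither the promoter of the transgene, the make-up of the vehicle, the dose and length of MitoQ treatment nor the age and sex of the mice. The series was made to look for pathways through which mitochondrial reactive oxygen species worsen cardiomyopathy in cSirt4-Tg mice, and this contrast is the one that sets the MitoQ response of the 2 genotypes against each other.

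As background, TAC (transverse aortic constriction) is a surgical narrowing of the aortic arch that puts the left ventricle under pressure load. The loaded heart returns to fetal genes such as the natriuretic peptides, lays down collagen under TGF-beta signalling, and lowers the genes of fatty acid oxidation and the respiratory chain. Sirt4 is a mitochondrial sirtuin that acts on enzymes of fuel metabolism. MitoQ is a ubiquinone coupled to a lipophilic cation, which carries this antioxidant into mitochondria.

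The deposited values are normalized read counts, given below as the lowest, the median and the highest of the 6 hearts of a group. The 24 TAC libraries held between 14834719 and 55383148 reads over the listed genes. In 2 vehicle libraries, the library labelled Tg-TAC 6 and Con-TAC 6, the name carries a first number (29 and 20) outside the 7 to 12 of the other 10 vehicle libraries, while every MitoQ library has 20 or 21. What this number stands for is not given. Entered as a covariate in 3 classes over all libraries, it gave 17 genes in the interaction, against 0 without it, and 225 for MitoQ minus vehicle in Con hearts, against 526. In that fit Con-TAC 6 is the only library without MitoQ in the class of the MitoQ libraries. Over the 22 libraries described below it separates every MitoQ library from every vehicle library, so there the number and the MitoQ effect within a genotype cannot be told apart. The number after the S in the names, whose meaning is not given either, runs from 12 to 14 in Tg-TAC-MQ, is 1 to 5 in Tg-TAC apart from 12 in Tg-TAC 2, and runs from 6 to 11 in both Con groups. It thus differs between MitoQ and vehicle in Tg hearts and not in Con hearts, as the interaction itself does, and its part in the results was not tested. The library labelled Tg-TAC 6 and Con-TAC 6 also stood apart in their values: their correlations with the mean of their own group were 0.939 and 0.946. On the first principal component of the 24 libraries, the library labelled Tg-TAC 6 lay at 51.5, against -118 to -30.7 for Tg-TAC 1 to 5, and Con-TAC 6 at -55.1, against 0.596 to 41.2 for Con-TAC 1 to 5. Con-TAC-MQ 3 lay at -39.4 on the same component, against 15.1 to 42.0 for the other 5 Con-TAC-MQ hearts. Over the 11 genes that differed by genotype both in sham hearts and in MitoQ-treated TAC hearts (limma, adjusted p under 0.05), 5 to 10 lay on the cSirt4-Tg side in Tg-TAC libraries 1 to 5, 2 in the library labelled Tg-TAC 6, 0 to 2 in Con-TAC libraries 1 to 5 and 3 in Con-TAC 6. Whether the labels of these 2 libraries were exchanged cannot be settled from the files; every count takes the labels as given, and an exchange would alter what the results over 24 and over 22 libraries mean. Results are therefore given over all 24 TAC libraries and over the 22 left without these 2. In both fits the sham libraries of the series also entered the estimate of the spread. Leaving them out was decided with earlier results of these data known. On the first principal component each of these 2 libraries lies towards the vehicle hearts of the other genotype. Their omission thus widens the Tg minus Con difference with vehicle along that component by construction. Among the 11 genes above, this difference narrowed for Dmd (-0.943 to -0.918) and Polr3g (-0.425 to -0.286) and widened for the others. The median SD per gene also fell, from 0.35 to 0.29 in Tg-TAC and from 0.31 to 0.24 in Con-TAC hearts, and this spread enters every comparison. Genes called by genotype in sham hearts, which include neither library, rose from 142 to 500. Calls over 22 libraries depend on that omission and stand beside the result over all 24, not in its place. Tg-TAC 4 (correlation 0.929) and Con-TAC-MQ 3 (0.960) stood apart as well, and every other library had at least 0.975.

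Sirt4, the gene named in the transgene, did not pass a test between the genotypes. Sirt4 had 311, 355 and 376 normalized counts in Tg-TAC-MQ hearts, 313, 343 and 473 in Tg-TAC hearts, 334, 350.5 and 382 in Con-TAC-MQ hearts and 253, 358 and 385 in Con-TAC hearts. The groups overlapped throughout. Tg minus Con was -0.02 on the log2 scale with MitoQ (exact permutation test, two-sided, p = 0.742, n = 6 each) and 0.09 with vehicle (exact permutation test, two-sided, p = 0.528, n = 6 each), against a smallest p of 0.00216 that 6 against 6 can give. Adjusted over these 2 tests, both p-values are 0.742. The deposited Sirt4 values therefore give no check of the genotype labels.

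Over all 24 TAC libraries, no gene passed in the interaction, and over the 22 libraries 1400 passed (limma, Benjamini-Hochberg adjusted p under 0.05). The first count is 0.00% of the 16275 genes tested, with a smallest adjusted p of 0.0612; 1377 genes (8.46%) had an unadjusted p under 0.05, of which 730 (4.49%) were positive and 647 (3.98%) negative. EdgeR's quasi-likelihood test on the recovered reads called 0 genes as well, with 1546 at an unadjusted p under 0.05, and DESeq2 called 16 (0.0983%). The second count is 8.60% of the genes, with 794 positive (4.88%) and 606 negative (3.72%), and 25.1% had an unadjusted p under 0.05 (13.2% positive and 11.9% negative). The median over all genes was -0.0015 over all libraries and -0.018 over 22. All 1400 genes had the same sign over all 24 libraries, where 643 of them had an unadjusted p under 0.05. The 22 libraries are among the 24, so this agreement in sign is not an independent check.

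In the fit over 22 libraries, the 1400 genes had a common shape: the genotypes were apart with vehicle and close with MitoQ. Of them, 1370 also differed between Tg-TAC and Con-TAC hearts and 4 between Tg-TAC-MQ and Con-TAC-MQ hearts, against a background of 30.1% and 0.172% of all genes called in those 2 comparisons over the same libraries. MitoQ minus vehicle passed in Tg hearts for 1118 of them (background 29.9%) and in Con hearts for 225 (background 13.2%), it was larger in size in Tg hearts for 1119, and it had opposite signs in the 2 genotypes for 1079. These comparisons use the same libraries as the interaction, so the counts describe it and do not add support to it. The comparisons also take the same spread for every group. With a variance weight for each group over all 24 libraries, Tg minus Con passed for 17 genes with vehicle and 60 with MitoQ. Without these weights the counts were 1054 and 12. Such weights were not applied over the 22 libraries, so whether 1370 and 4 would hold under them was not tested. In size, Tg minus Con was larger with vehicle for 1372 of the 1400 genes. Across all genes and all 24 libraries, MitoQ minus vehicle passed for 2821 genes in Tg hearts (17.3%) and for 526 in Con hearts (3.23%). Of these, 317 were called in both with the same sign, 11.2% of the Tg list and 60.3% of the Con list, and 0 (0.00%) with opposite signs. Averaged over the genotypes, MitoQ minus vehicle passed for 3851 genes (23.7%), and averaged over the treatments, Tg minus Con passed for 533 (3.27%). Over 22 libraries, MitoQ minus vehicle was called in both genotypes with the same sign for 913 genes and with opposite signs for 36. The 913 were 18.7% of the Tg list and 42.4% of the Con list over those libraries.

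The count rests on single libraries. With 1 library left out of the 24, no gene passed except without Tg-TAC 6 (23 genes), without Tg-TAC 2 (10) and without Con-TAC 6 (7). With 1 further library left out of the 22, the count lay between 691 (without Con-TAC 5) and 2042 (without Tg-TAC 2), with 716 without Tg-TAC 4, 822 without Tg-TAC 5, 823 without Con-TAC-MQ 3 and 893 without Con-TAC 3; 569 of the 1400 genes passed in every such fit. With Tg-TAC 4 and Con-TAC-MQ 3 left out beside the 2 libraries, 527 genes passed, of which 511 are among the 1400. The hearts of a group were also unequally alike: the median SD per gene, on the log2 scale, was 0.17 in Tg-TAC-MQ, 0.35 in Tg-TAC, 0.27 in Con-TAC-MQ and 0.31 in Con-TAC hearts.

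**Figure D1:**
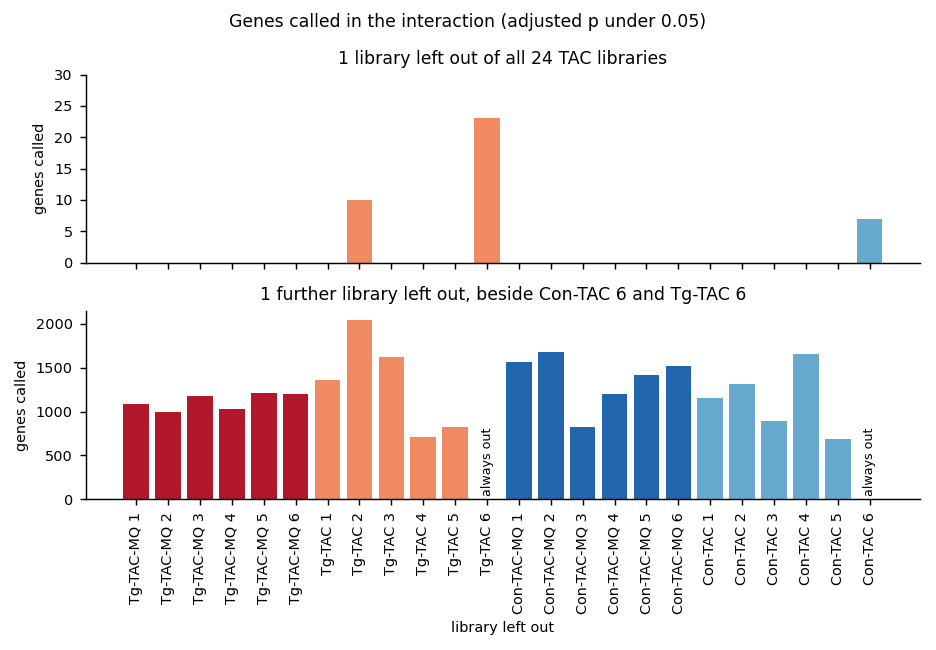
Number of genes called in the interaction (adjusted p under 0.05, limma) for each library left out, from all 24 TAC libraries (upper bars) and from the 22 that remain without Con-TAC 6 and Tg-TAC 6 (lower bars). Single omissions from the 24 give 0 except for Tg-TAC 6 (23), Tg-TAC 2 (10) and Con-TAC 6 (7), while omissions from the 22 give 691 to 2042.

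Grouped by function, most matrix, TGF-beta and fetal genes had negative interactions, and most genes of fatty acid and TCA cycle metabolism, the respiratory chain and calcium handling positive ones. No member of any list passed in the interaction over all 24 libraries, so the calls in the lists below are those over 22, and a count of calls given without a named library is over the other 21. The lists were drawn from textbook knowledge, but with earlier results of these data known. They are described by counts and medians beside those of all genes. The median of a list kept its sign between the 2 sets of libraries for 36 of the 37 lists, the exception being the erythroid markers. The 2 sets share 22 libraries, so this too is not an independent check. With single libraries left out of the 24 the medians moved: 28 lists kept their sign, and the antioxidant, interferon, p53, heat shock, clock, endothelial, lymphocyte, erythroid and mesothelial lists did not. The median of the matrix list was -1.10 without Tg-TAC 6 and -0.50 without Con-TAC-MQ 3, and that of the fetal list -0.93 and -0.13 without the same 2 libraries. The medians of the calcium handling, fatty acid, TCA cycle, ketone, coenzyme Q and nuclear respiratory chain lists were lowest without Tg-TAC 4. They were highest without Tg-TAC 6, except that of the respiratory chain, which was highest without Con-TAC 6.

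**Figure D2:**
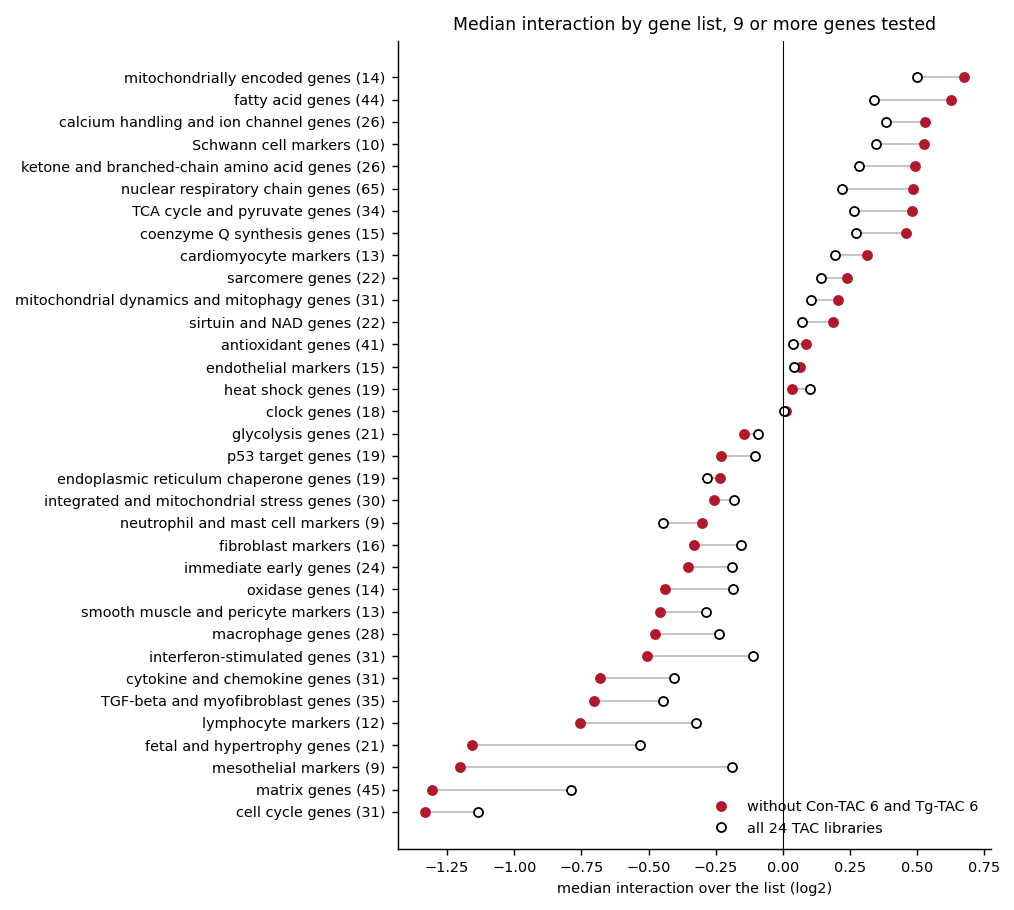
Median interaction on the log2 scale of each gene list with at least 9 genes tested (number tested in parentheses), over all 24 TAC libraries (open circles) and over 22 (red circles). Cell cycle and matrix genes have the lowest medians over all libraries (-1.14 and -0.79) and the mitochondrially encoded genes the highest (0.50); the vertical line marks 0. Without Con-TAC-MQ 3 these 2 negative medians over all libraries were -0.65 and -0.50.

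For 30 of 45 extracellular matrix genes the MitoQ difference was lower in Tg hearts than in Con hearts by the 22-library fit. All 45 members were tested and all 45 had a negative interaction in both fits (median -0.79 over all libraries, -1.10 to -0.50 with 1 left out, and -1.31 over 22); below 0 lay 50.2% and 51.9% of all genes, and above 0 lay 49.8% and 48.1%. Over all libraries 0 passed and 9 had an unadjusted p under 0.05, while over 22 libraries 30 passed (background 3.72% in that direction). MitoQ minus vehicle had a median of -0.59 in Tg hearts and 0.09 in Con hearts over all libraries, and of -0.92 in Tg hearts and 0.25 in Con hearts over 22. Tg minus Con had a median of 0.21 with MitoQ, and with vehicle of 1.12 over all libraries and 1.69 over 22. The mean log2 level of the list was 10.2 to 10.6 in Tg-TAC-MQ hearts, 9.28 to 12 in Tg-TAC hearts, 9.5 to 11.5 in Con-TAC-MQ hearts and 9.35 to 11.4 in Con-TAC hearts. The count of 30 dropped to 16 without Con-TAC 5 and to 17 without Tg-TAC 4 and Con-TAC-MQ 3.

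Postn had 1942, 3655 and 5204 normalized counts in Tg-TAC-MQ hearts, 871, 15856 and 39954 in Tg-TAC hearts, 1094, 2348 and 10322 in Con-TAC-MQ hearts and 1051, 3671 and 16577 in Con-TAC hearts. Postn encodes periostin, a matrix protein of activated fibroblasts, and was named after its values were seen. The library labelled Tg-TAC 6 was the lowest of all 24 and Con-TAC 6 the highest of its group; leaving out Con-TAC 6 and Tg-TAC 6, the Tg-TAC hearts held 14307 to 39954 and the Con-TAC hearts 1051 to 5866. For Postn the interaction was -1.38 ± 0.90 over all libraries (SE, adjusted p = 0.659) and -2.59 ± 0.62 over 22 (adjusted p = 0.0117). Loxl3 had 199, 227 and 260.2 normalized counts in Tg-TAC-MQ hearts, 158, 786 and 1769 in Tg-TAC hearts, 143, 208 and 988 in Con-TAC-MQ hearts and 109, 244 and 919 in Con-TAC hearts. Loxl3 is a lysyl oxidase, an enzyme that crosslinks collagen, and here too Con-TAC 6 and Con-TAC-MQ 3 stood far above the rest of their groups while the library labelled Tg-TAC 6 stood below all Tg-TAC-MQ hearts. For Loxl3 the interaction was -1.61 ± 0.65 over all libraries (SE, adjusted p = 0.574) and -2.41 ± 0.51 over 22 (adjusted p = 0.00586). Col18a1 had 435, 478 and 864 normalized counts in Tg-TAC-MQ hearts, 336, 759 and 1283 in Tg-TAC hearts, 382, 619 and 901 in Con-TAC-MQ hearts and 339.5, 405 and 641 in Con-TAC hearts. Col18a1, a basement membrane collagen, overlapped between all groups. For Col18a1 the interaction was -0.88 ± 0.34 over all libraries (SE, adjusted p = 0.549) and -1.21 ± 0.30 over 22 (adjusted p = 0.013). Eln had 1125, 1643 and 1793 normalized counts in Tg-TAC-MQ hearts, 1638, 2892 and 3875 in Tg-TAC hearts, 688, 1424 and 1631 in Con-TAC-MQ hearts and 797, 1236 and 1645 in Con-TAC hearts. Eln, elastin of elastic fibres, was higher in every Tg-TAC heart but 1 than in any Con heart with vehicle. For Eln the interaction was -0.89 ± 0.34 over all libraries (SE, adjusted p = 0.549) and -1.10 ± 0.35 over 22 (adjusted p = 0.0439).

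Col3a1 and Col4a1, named for their high level, did not pass in either fit. Col3a1 had 17178, 20112 and 21177 normalized counts in Tg-TAC-MQ hearts, 8599, 28160.1 and 41587 in Tg-TAC hearts, 5208, 9031 and 51016 in Con-TAC-MQ hearts and 5805, 8465 and 13799 in Con-TAC hearts. In Col3a1, a fibrillar collagen, the single Con-TAC-MQ 3 heart was the highest of all 24. For Col3a1 the interaction was -0.65 ± 0.50 over all libraries (SE, adjusted p = 0.712) and -1.08 ± 0.48 over 22 (adjusted p = 0.15). Col4a1 had 18258, 21459 and 24704 normalized counts in Tg-TAC-MQ hearts, 13310.3, 27365 and 34486 in Tg-TAC hearts, 15255, 19759 and 34545 in Con-TAC-MQ hearts and 14509, 19738 and 27435 in Con-TAC hearts. Col4a1, a basement membrane collagen whose locus overlaps Col4a2, overlapped between all groups. For Col4a1 the interaction was -0.42 ± 0.28 over all libraries (SE, adjusted p = 0.662) and -0.71 ± 0.24 over 22 (adjusted p = 0.0559). Over 22 libraries Col4a2 -0.71 (adjusted p = 0.0263), Col1a1 -1.45 (adjusted p = 0.0282) and Fn1, fibronectin, -1.81 (adjusted p = 0.0388) passed. These 3 calls ended when Con-TAC 5 and Tg-TAC 5 were left out in turn, as did that of Eln. Of the 22 fits with 1 library left out, the call ended in 13 for Eln, 8 for Fn1, 4 for Col4a2 and 3 for Col1a1. The calls of Postn, Loxl3 and Col18a1 held with any 1 of the 22 left out. That of Col18a1 ended without both Tg-TAC 4 and Con-TAC-MQ 3 (adjusted p = 0.0624).

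Among 35 TGF-beta and myofibroblast genes, 31 had a negative interaction in both fits (median -0.45 over all libraries, -0.63 to -0.34 with 1 left out, and -0.70 over 22); 0 passed over all libraries and 13 passed over 22, all negative (background 3.72%), and 8 without Tg-TAC 4. Inhba had 48.1, 82 and 95.5 normalized counts in Tg-TAC-MQ hearts, 108, 164 and 364 in Tg-TAC hearts, 60.6, 163 and 674 in Con-TAC-MQ hearts and 46.8, 85 and 309 in Con-TAC hearts. Inhba encodes a subunit of activin, a TGF-beta family ligand; all Tg-TAC-MQ hearts lay below all Tg-TAC hearts, and the Con groups overlapped. For Inhba the interaction was -2.09 ± 0.59 over all libraries (SE, adjusted p = 0.454) and -2.45 ± 0.57 over 22 (adjusted p = 0.00987). Smad6 had 289.5, 329 and 394 normalized counts in Tg-TAC-MQ hearts, 447, 510.3 and 789 in Tg-TAC hearts, 313, 345 and 393 in Con-TAC-MQ hearts and 310.2, 383 and 459 in Con-TAC hearts. Smad6, an inhibitor of the pathway, had all Tg-TAC-MQ hearts below all Tg-TAC hearts, while the Con groups overlapped. For Smad6 the interaction was -0.62 ± 0.18 over all libraries (SE, adjusted p = 0.477) and -0.63 ± 0.19 over 22 (adjusted p = 0.0348). Ccn2 had 3579, 5026 and 6779.9 normalized counts in Tg-TAC-MQ hearts, 2137, 19946 and 39669.5 in Tg-TAC hearts, 1589, 3863 and 12138 in Con-TAC-MQ hearts and 3315, 4602 and 19860.2 in Con-TAC hearts. Ccn2, a matricellular target of TGF-beta, was lowest in the library labelled Tg-TAC 6 within Tg-TAC and highest in Con-TAC 6 within Con-TAC. For Ccn2 the interaction was -1.06 ± 0.70 over all libraries (SE, adjusted p = 0.664) and -1.97 ± 0.50 over 22 (adjusted p = 0.0159). Ltbp4 had 9921, 11883 and 12805 normalized counts in Tg-TAC-MQ hearts, 12097, 17041 and 19884 in Tg-TAC hearts, 8287, 12291 and 15380.4 in Con-TAC-MQ hearts and 10058, 12717 and 16632 in Con-TAC hearts. Ltbp4 binds latent TGF-beta in the matrix. For Ltbp4 the interaction was -0.40 ± 0.19 over all libraries (SE, adjusted p = 0.574) and -0.57 ± 0.17 over 22 (adjusted p = 0.0364). Acta2 had 2849, 3365 and 7211 normalized counts in Tg-TAC-MQ hearts, 3709, 6095 and 7855 in Tg-TAC hearts, 1775, 2109.8 and 4439 in Con-TAC-MQ hearts and 1138, 1980.1 and 4197 in Con-TAC hearts. Acta2, smooth muscle actin and a myofibroblast marker, did not pass in either fit. For Acta2 the interaction was -0.81 ± 0.42 over all libraries (SE, adjusted p = 0.602) and -0.94 ± 0.44 over 22 (adjusted p = 0.18). The calls of Inhba and Ccn2 over 22 libraries held with any 1 more left out, while those of Smad6 and Ltbp4 ended in 7 and 9 of the 22 such fits. The call of Ccn2 ended without both Tg-TAC 4 and Con-TAC-MQ 3 (adjusted p = 0.058).

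The fetal and hypertrophy list was mostly negative. Of 21 genes tested, 17 were negative over all libraries and 19 over 22 (median -0.53 over all libraries, -0.93 to -0.13 with 1 left out, and -1.16 over 22); 0 passed over all libraries, and 5 negative and 1 positive passed over 22 (background 3.72% negative and 4.88% positive). Nppa had 22320.2, 33350.4 and 45664 normalized counts in Tg-TAC-MQ hearts, 3535, 180557 and 245197 in Tg-TAC hearts, 3905, 15572 and 32599.6 in Con-TAC-MQ hearts and 10111, 31262 and 111264 in Con-TAC hearts. Nppa, atrial natriuretic peptide, did not overlap between Tg-TAC-MQ hearts and Tg-TAC hearts 1 to 5, whereas the library labelled Tg-TAC 6 was the lowest of all 24. For Nppa the interaction was -0.53 ± 1.00 over all libraries (SE, adjusted p = 0.893) and -1.87 ± 0.66 over 22 (adjusted p = 0.0687). Ankrd1 had 102893, 136863 and 167566 normalized counts in Tg-TAC-MQ hearts, 44114, 242127 and 270939 in Tg-TAC hearts, 57866, 81748 and 230177 in Con-TAC-MQ hearts and 89661, 152592 and 218043 in Con-TAC hearts. Ankrd1, a stretch-responsive nuclear and sarcomeric protein, had no interaction past the threshold in either fit. For Ankrd1 the interaction was 0.07 ± 0.47 over all libraries (SE, adjusted p = 0.978) and -0.46 ± 0.36 over 22 (adjusted p = 0.448). Acta1 had 50368, 73780.4 and 98254 normalized counts in Tg-TAC-MQ hearts, 9532, 117706 and 192358 in Tg-TAC hearts, 43719, 64931 and 163130.0 in Con-TAC-MQ hearts and 27540.1, 93664 and 107859 in Con-TAC hearts. Acta1, skeletal actin, overlapped in all groups. For Acta1 the interaction was 0.08 ± 0.81 over all libraries (SE, adjusted p = 0.985) and -0.54 ± 0.73 over 22 (adjusted p = 0.693). For Ankrd1 and Acta1 the sign differed between the 2 fits. Fhl1 had 3650.1, 4714 and 5539.7 normalized counts in Tg-TAC-MQ hearts, 4102, 15542 and 22124 in Tg-TAC hearts, 4183, 6434 and 26368 in Con-TAC-MQ hearts and 3170.1, 6798 and 19247 in Con-TAC hearts. Fhl1, a LIM protein of the stretched sarcomere, was higher in Tg-TAC hearts 1 to 5 than in every Tg-TAC-MQ heart, with Con-TAC-MQ 3 and Con-TAC 6 the highest of their groups. For Fhl1 the interaction was -1.56 ± 0.55 over all libraries (SE, adjusted p = 0.546) and -2.18 ± 0.46 over 22 (adjusted p = 0.00601). Actn1 had 1160.1, 1222 and 1457 normalized counts in Tg-TAC-MQ hearts, 704, 1950.2 and 3023 in Tg-TAC hearts, 1088, 1241 and 3176 in Con-TAC-MQ hearts and 1009, 1098 and 1856 in Con-TAC hearts. Actn1, a non-sarcomeric actinin, showed the same order. For Actn1 the interaction was -0.76 ± 0.34 over all libraries (SE, adjusted p = 0.574) and -1.16 ± 0.26 over 22 (adjusted p = 0.00844). The positive call was Myh7b (1.24 over 22 libraries, adjusted p = 0.026), a myosin heavy chain, named after its value was seen.

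**Figure D3:**
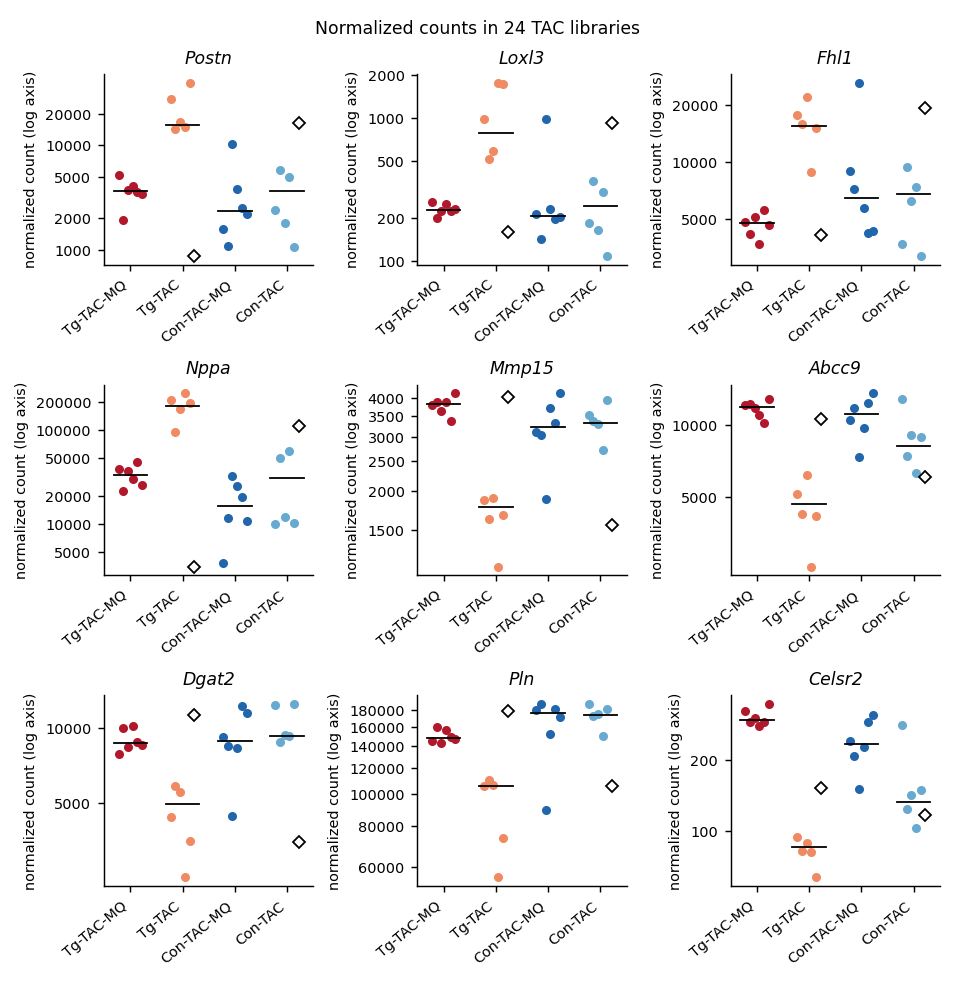
Normalized counts on a log axis of 9 genes in each of the 24 TAC hearts; bars are group medians, and open diamonds mark Con-TAC 6 and the library labelled Tg-TAC 6. In Postn the diamonds lie at 871 in Tg-TAC and 16577 in Con-TAC, and in Mmp15 at 4029 in Tg-TAC and 1555 in Con-TAC, each on the far side of its group.

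Most genes of calcium handling and ion channels had positive interactions. Of 26 tested, 25 were positive over all libraries and 23 over 22 (median 0.38 over all libraries, 0.24 to 0.49 with 1 left out, and 0.53 over 22), with 0 passing over all libraries and 11 over 22, all positive (background 4.88%), and 5 without Tg-TAC 4. Abcc9 had 10206, 11881 and 12741 normalized counts in Tg-TAC-MQ hearts, 2589, 4720.1 and 10557 in Tg-TAC hearts, 7353, 11068 and 13471 in Con-TAC-MQ hearts and 6090.0, 8168 and 12816 in Con-TAC hearts. Abcc9 is the regulatory subunit of the cardiac ATP-sensitive potassium channel; Tg-TAC hearts 1 to 5 all lay below the Tg-TAC-MQ hearts. For Abcc9 the interaction was 0.83 ± 0.28 over all libraries (SE, adjusted p = 0.533) and 1.13 ± 0.23 over 22 (adjusted p = 0.00435). Kcnj11 had 3017, 3779 and 4043 normalized counts in Tg-TAC-MQ hearts, 2465, 3008 and 3873 in Tg-TAC hearts, 2002, 4049 and 4947 in Con-TAC-MQ hearts and 3460.1, 4223 and 4459 in Con-TAC hearts. Kcnj11 is the pore of that channel, and the groups overlapped. For Kcnj11 the interaction was 0.49 ± 0.19 over all libraries (SE, adjusted p = 0.574) and 0.61 ± 0.19 over 22 (adjusted p = 0.0438). Pln had 142905, 147849 and 159692 normalized counts in Tg-TAC-MQ hearts, 55684, 105925 and 178833 in Tg-TAC hearts, 89670.3, 176136 and 188145 in Con-TAC-MQ hearts and 105761, 174183 and 188147 in Con-TAC hearts. Pln, phospholamban, the inhibitor of the calcium pump of the sarcoplasmic reticulum, was lower in Tg-TAC hearts 1 to 5 than in every Tg-TAC-MQ heart. For Pln the interaction was 0.64 ± 0.26 over all libraries (SE, adjusted p = 0.574) and 0.93 ± 0.21 over 22 (adjusted p = 0.00901). The calls of Abcc9 and Pln over 22 held with any 1 more left out, and that of Kcnj11 ended in 15 of the 22 such fits. In the sarcomere list, 16 of 22 were positive over all libraries (median 0.14 over all libraries, 0.03 to 0.23 with 1 left out, and 0.24 over 22), and 3 positive and 1 negative passed over 22 (background 4.88% and 3.72%). The negative one was Des. Des had 61871, 78272 and 86181 normalized counts in Tg-TAC-MQ hearts, 73422, 159671 and 209490.0 in Tg-TAC hearts, 61707, 69599 and 109208 in Con-TAC-MQ hearts and 62360.4, 87653 and 124968 in Con-TAC hearts. Des, desmin, the intermediate filament that ties Z-discs together, was high in Tg-TAC hearts 1 to 5. For Des the interaction was -0.65 ± 0.24 over all libraries (SE, adjusted p = 0.546) and -0.94 ± 0.19 over 22 (adjusted p = 0.00404).

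Most genes of fuel oxidation had positive interactions. In the fatty acid list 38 of 44 were positive over all libraries and 40 over 22 (median 0.34 over all libraries, 0.20 to 0.52 with 1 left out, and 0.63 over 22), with 24 passing over 22, all positive (background 4.88%, as for the next 2 lists). In the list of the TCA cycle and pyruvate 31 of 34 were positive in both fits (median 0.26 over all libraries, 0.14 to 0.38 with 1 left out, and 0.48 over 22), with 19 passing over 22, and among 26 ketone and branched-chain amino acid genes 22 were positive over all libraries and 23 over 22 (median 0.28 over all libraries, 0.19 to 0.43 with 1 left out, and 0.49 over 22), with 16 passing over 22. No member of these 3 lists passed over all 24 libraries. Esrrg had 1416, 1567 and 1637 normalized counts in Tg-TAC-MQ hearts, 817, 1039 and 1435 in Tg-TAC hearts, 1055, 1765 and 2143 in Con-TAC-MQ hearts and 1316, 1482 and 1726 in Con-TAC hearts. Esrrg is a nuclear receptor that drives mitochondrial genes; Tg-TAC hearts 1 to 5 all lay below the Tg-TAC-MQ hearts. For Esrrg the interaction was 0.44 ± 0.16 over all libraries (SE, adjusted p = 0.548) and 0.54 ± 0.16 over 22 (adjusted p = 0.0297). Dgat2 had 7829, 8654 and 10124 normalized counts in Tg-TAC-MQ hearts, 2499, 4949 and 11293 in Tg-TAC hearts, 4395, 8818 and 12199 in Con-TAC-MQ hearts and 3461, 9291 and 12452 in Con-TAC hearts. Dgat2 makes triglycerides; Con-TAC 6 and Con-TAC-MQ 3 were the lowest of their groups and the library labelled Tg-TAC 6 the highest of its own. For Dgat2 the interaction was 0.87 ± 0.38 over all libraries (SE, adjusted p = 0.574) and 1.37 ± 0.28 over 22 (adjusted p = 0.00496). Lpl had 113080.0, 134711 and 142006 normalized counts in Tg-TAC-MQ hearts, 70966, 94837 and 155250.0 in Tg-TAC hearts, 88267, 155397 and 164990.0 in Con-TAC-MQ hearts and 109929, 161603 and 205933 in Con-TAC hearts. Lpl, lipoprotein lipase, overlapped in all groups. For Lpl the interaction was 0.49 ± 0.22 over all libraries (SE, adjusted p = 0.574) and 0.72 ± 0.19 over 22 (adjusted p = 0.0208).

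Suclg2 had 3862, 4226 and 4413 normalized counts in Tg-TAC-MQ hearts, 2113, 3029 and 4777 in Tg-TAC hearts, 3199.5, 4604 and 4887 in Con-TAC-MQ hearts and 3079, 4494 and 5205 in Con-TAC hearts. Suclg2 is a subunit of succinyl-CoA synthetase in the TCA cycle; Tg-TAC hearts 1 to 5 lay below all Tg-TAC-MQ hearts. For Suclg2 the interaction was 0.43 ± 0.18 over all libraries (SE, adjusted p = 0.574) and 0.66 ± 0.15 over 22 (adjusted p = 0.00712). Dlat had 13100.3, 13412 and 14251 normalized counts in Tg-TAC-MQ hearts, 8118, 12141 and 14719.7 in Tg-TAC hearts, 10548, 14883 and 15715 in Con-TAC-MQ hearts and 12267, 15347 and 16594 in Con-TAC hearts. Dlat is a subunit of pyruvate dehydrogenase, the lipoamide-bearing complex on which Sirt4 is known to act. For Dlat the interaction was 0.30 ± 0.14 over all libraries (SE, adjusted p = 0.582) and 0.43 ± 0.13 over 22 (adjusted p = 0.0419). Aldh6a1 had 6021, 6648 and 7519 normalized counts in Tg-TAC-MQ hearts, 3253, 4040.3 and 8447 in Tg-TAC hearts, 4499.8, 8149 and 8807 in Con-TAC-MQ hearts and 4966, 6937 and 8229 in Con-TAC hearts. Aldh6a1, an enzyme of valine breakdown, showed the same order. For Aldh6a1 the interaction was 0.48 ± 0.22 over all libraries (SE, adjusted p = 0.574) and 0.75 ± 0.17 over 22 (adjusted p = 0.0067). In glycolysis, 12 of 21 genes were negative over all libraries (median -0.09 over all libraries, -0.16 to -0.06 with 1 left out, and -0.14 over 22), and 4 positive and 3 negative passed over 22 (background 4.88% and 3.72%), among them the insulin-dependent glucose transporter Slc2a4 (0.87, adjusted p = 0.0112). The calls of Dgat2, Suclg2, Aldh6a1 and Slc2a4 held with any 1 of the 22 left out, that of Lpl ended without Tg-TAC 4 or Con-TAC 5, and those of Esrrg and Dlat ended in 4 and 13 fits. Without Tg-TAC 4, 13 fatty acid genes and 3 TCA genes passed.

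**Figure D4:**
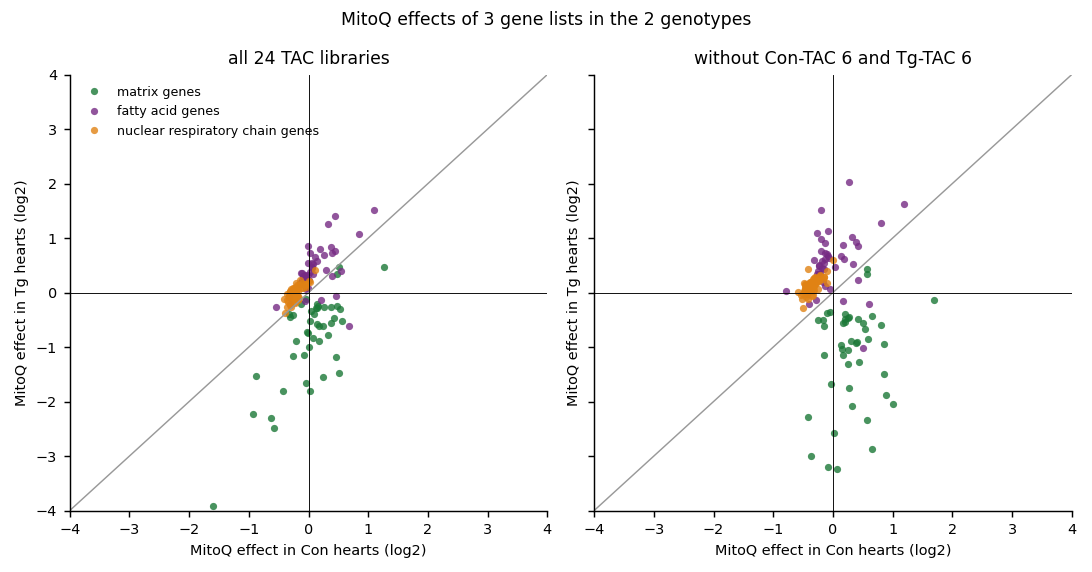
MitoQ minus vehicle on the log2 scale in Tg hearts (vertical) and in Con hearts (horizontal) for the matrix, fatty acid and nuclear respiratory chain genes, each point 1 gene, over all 24 TAC libraries (left) and over 22 (right). Points below the diagonal have a negative interaction and points above it a positive one: all 45 matrix genes lie below it and all 65 respiratory chain genes above it in both panels.

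In the respiratory chain all genes had a positive interaction, and few passed in the MitoQ effect of either genotype over all libraries. All 65 nuclear-encoded genes tested, of 80 listed, were positive in both fits (median 0.22 over all libraries, 0.10 to 0.36 with 1 left out, and 0.48 over 22); 0 passed over all libraries and 26 passed over 22 (background 4.88%). MitoQ minus vehicle had a median of -0.02 in Tg hearts and -0.22 in Con hearts over all libraries, and of 0.13 in Tg hearts and -0.37 in Con hearts over 22. Over all libraries 1 gene passed in Tg hearts, downwards, and 0 in Con hearts, whereas over 22 there were 7 upwards in Tg hearts (background 16.2%) and 40 downwards in Con hearts (background 6.00%). The mean log2 level of the list was 12.7 to 12.9 in Tg-TAC-MQ hearts, 12.2 to 13.5 in Tg-TAC hearts, 12.5 to 13 in Con-TAC-MQ hearts and 12.4 to 13.5 in Con-TAC hearts. The count of 26 dropped to 2 without Con-TAC 5 and to 1 without Tg-TAC 4 and Con-TAC-MQ 3. Ndufs1, the largest subunit of complex I and named after its values were seen, had 0.60 over 22 libraries (adjusted p = 0.0174). Among 15 genes of coenzyme Q synthesis, the natural counterpart of the MitoQ head group, 12 were positive in both fits (median 0.27 over all libraries, 0.16 to 0.36 with 1 left out, and 0.46 over 22) and 5 passed over 22 (3 without Tg-TAC 4), namely Coq8a (0.79, adjusted p = 0.00734), Coq2 (0.49, adjusted p = 0.00972), Coq9 (0.66, adjusted p = 0.0181), Coq7 (0.54, adjusted p = 0.0246) and Coq10a (0.67, adjusted p = 0.0341). Coq7 had 1606, 1679 and 1786 normalized counts in Tg-TAC-MQ hearts, 1258, 1657 and 1959 in Tg-TAC hearts, 1266, 1687 and 1927 in Con-TAC-MQ hearts and 1374, 2110.0 and 2586 in Con-TAC hearts. In Coq7, a hydroxylase of that pathway, Con-TAC hearts 1 to 5 lay above all 6 Con-TAC-MQ hearts. For Coq7 the interaction was 0.37 ± 0.17 over all libraries (SE, adjusted p = 0.574) and 0.54 ± 0.15 over 22 (adjusted p = 0.0246); the call ended without Tg-TAC 4, Con-TAC 5 or Tg-TAC 5.

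The 6 smallest p-values of the interaction over all 24 libraries belonged to mt-Co2, mt-Co3 and 4 nuclear copies of mitochondrial genes. A block of chromosome 1 (mm39, positions 24650616 to 24655278) holds 6 annotated pseudogenes that repeat stretches of mitochondrial DNA. In the GENCODE vM21 transcripts Gm28437 matched mt-Co3 over 783 bases, Gm28661 matched mt-Co2 over 681, Gm10925 matched mt-Atp6 over 678, Gm28439 matched mt-Nd4 over 876 and Gm28438 matched mt-Nd3 over 342, each with 0 mismatches, and Gm29216 matched mt-Co1 over 483 bases with 1 mismatch. Reads from identical stretches cannot be told apart, so these genes are reported as uncertain. The first 60 bases of the mt-Co3 and Gm28437 transcripts, shown because these genes are among the leading ones, read:
mt-Co3: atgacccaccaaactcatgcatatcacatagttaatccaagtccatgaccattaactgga
Gm28437: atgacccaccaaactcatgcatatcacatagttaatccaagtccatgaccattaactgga
The single difference between mt-Co1 and Gm29216 is A4T, counted from the first base of the stretch shown here, and stands in capitals:
mt-Co1: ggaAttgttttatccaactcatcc
Gm29216: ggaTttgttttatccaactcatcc

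mt-Co3 had 114, 147 and 183 normalized counts in Tg-TAC-MQ hearts, 73.7, 104 and 227 in Tg-TAC hearts, 96.9, 147 and 166 in Con-TAC-MQ hearts and 185, 340.5 and 379 in Con-TAC hearts. mt-Co3 encodes a core subunit of cytochrome oxidase; Con-TAC hearts 1 to 5 lay above all other 19 hearts. For mt-Co3 the interaction was 1.56 ± 0.31 over all libraries (SE, adjusted p = 0.0612) and 1.74 ± 0.30 over 22 (adjusted p = 0.00272). Gm28437 had 223, 246 and 442 normalized counts in Tg-TAC-MQ hearts, 129, 189.7 and 412 in Tg-TAC hearts, 163, 270.3 and 296 in Con-TAC-MQ hearts and 328, 650.5 and 675 in Con-TAC hearts. Its copy Gm28437 followed the same order. For Gm28437 the interaction was 1.61 ± 0.32 over all libraries (SE, adjusted p = 0.0612) and 1.82 ± 0.31 over 22 (adjusted p = 0.00272). mt-Co2 had 183, 219.6 and 267 normalized counts in Tg-TAC-MQ hearts, 95.2, 151 and 409.7 in Tg-TAC hearts, 136, 217 and 228 in Con-TAC-MQ hearts and 320.2, 576 and 591 in Con-TAC hearts. mt-Co2, the copper-bearing oxidase subunit, had its highest hearts in Con-TAC 1 to 5 too. For mt-Co2 the interaction was 1.61 ± 0.34 over all libraries (SE, adjusted p = 0.112) and 1.88 ± 0.33 over 22 (adjusted p = 0.00293). For its copy Gm28661 the interaction was 1.40 ± 0.28 over all libraries (SE, adjusted p = 0.0612) and 1.63 ± 0.27 over 22 (adjusted p = 0.00243). The interaction of Gm10925, the copy of mt-Atp6, was 1.64 ± 0.30 over 22 libraries (SE, limma adjusted p = 0.00333). MitoQ minus vehicle over 22 libraries was 0.41 in Tg hearts (adjusted p = 0.148) and -1.33 in Con hearts (adjusted p = 0.000399) for mt-Co3. These calls held with any 1 of the 22 libraries left out, and DESeq2 over all 24 libraries called mt-Co3 (adjusted p = 0.0158), Gm28437 (adjusted p = 0.0108) and Gm28661 (adjusted p = 0.0122).

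Per kilobase of transcript, mt-Co3 averaged 230.1 normalized counts over the 24 TAC hearts and mt-Co1 1330660.0. mt-Co1 had 1931960.0, 1981520.0 and 2183840.0 normalized counts in Tg-TAC-MQ hearts, 1140170.0, 1625550.0 and 2078890.0 in Tg-TAC hearts, 1461210.0, 2351740.0 and 2505380.0 in Con-TAC-MQ hearts and 1696700.0, 2403340.0 and 2749720.0 in Con-TAC hearts. mt-Co1 did not pass in either fit. For mt-Co1 the interaction was 0.42 ± 0.21 over all libraries (SE, adjusted p = 0.595) and 0.58 ± 0.19 over 22 (adjusted p = 0.0506). Of 14 mitochondrially encoded genes tested all 14 were positive in both fits (median 0.50 over all libraries, 0.39 to 0.64 with 1 left out, and 0.68 over 22). Over 22 libraries 5 passed (background 4.88%), and 3 without Con-TAC 5. Of these 5, mt-Co2, mt-Co3 and mt-Atp6 have identical nuclear copies. The others, mt-Nd1 (0.65, adjusted p = 0.0323) and mt-Nd4l (2.18, adjusted p = 0.0345), were the closest match of no annotated copy in the block. Sequence between the annotated copies was not compared, so mt-Nd1 and mt-Nd4l are not shown to be free of such copies. The share of all reads on mitochondrial genes was 19.5 to 22.6% in Tg-TAC-MQ hearts, 13.1 to 19.6% in Tg-TAC hearts, 16.6 to 23.2% in Con-TAC-MQ hearts and 17.3 to 24.9% in Con-TAC hearts. Annotated pseudogenes as a class, grouped after the values were seen, had a median interaction of 0.36 over all libraries with 125 of 684 positive at an unadjusted p under 0.05, against -0.01 and 513 of 13883 for protein coding genes. The share of reads on Rn18s-rs5, a single entry related to 18S ribosomal RNA, was 0.591 to 1.33% in Tg-TAC-MQ hearts, 2.38 to 11.8% in Tg-TAC hearts, 0.636 to 1.39% in Con-TAC-MQ hearts and 1.55 to 9.22% in Con-TAC hearts, and its part in these results was not tested.

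**Figure D5:**
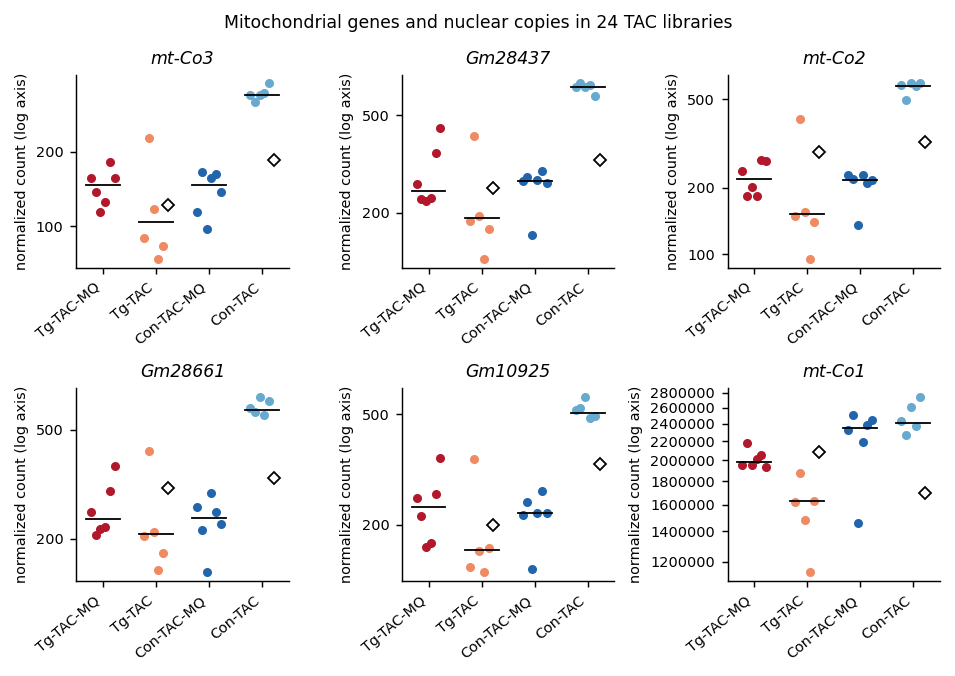
Normalized counts on a log axis of 3 mitochondrial genes and 3 nuclear copies in the 24 TAC hearts; bars are group medians, and open diamonds mark Con-TAC 6 and the library labelled Tg-TAC 6. Con-TAC hearts 1 to 5 are the highest for mt-Co3 (317 to 379) and Gm28437 (596 to 675), whereas mt-Co1 overlaps between Con-TAC-MQ and Con-TAC hearts.

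The antioxidant genes had no common direction. Of 41 tested, 22 were positive over all libraries and 21 over 22 (median 0.04 over all libraries, -0.04 to 0.06 with 1 left out, and 0.09 over 22), and over 22 libraries 3 positive and 4 negative passed (background 4.88% and 3.72%), with 2 in all without Con-TAC 5. Sod2 had 12069, 12834 and 13207 normalized counts in Tg-TAC-MQ hearts, 6731, 10597 and 17151 in Tg-TAC hearts, 9817, 14703 and 16142 in Con-TAC-MQ hearts and 9674, 14939 and 17139 in Con-TAC hearts. Sod2, the superoxide dismutase of the mitochondrial matrix, was lower in Tg-TAC hearts 1 to 5 than in every Tg-TAC-MQ heart. For Sod2 the interaction was 0.31 ± 0.20 over all libraries (SE, adjusted p = 0.659) and 0.56 ± 0.15 over 22 (adjusted p = 0.0219). Gpx3 had 5917, 6624 and 7638 normalized counts in Tg-TAC-MQ hearts, 3805, 18544 and 26538 in Tg-TAC hearts, 4707, 6175 and 8321 in Con-TAC-MQ hearts and 4147, 8172 and 22134 in Con-TAC hearts. Gpx3, the secreted glutathione peroxidase, was high in Tg-TAC hearts 1 to 5 and in Con-TAC 6. For Gpx3 the interaction was -0.69 ± 0.49 over all libraries (SE, adjusted p = 0.683) and -1.36 ± 0.34 over 22 (adjusted p = 0.0137). Nnt had 33.6, 37.8 and 58.1 normalized counts in Tg-TAC-MQ hearts, 13.2, 17.1 and 63.6 in Tg-TAC hearts, 11.5, 41.4 and 53 in Con-TAC-MQ hearts and 16.6, 48.7 and 52.6 in Con-TAC hearts. Nnt, which makes NADPH in mitochondria, was low in count in every heart. For Nnt the interaction was 1.13 ± 0.49 over all libraries (SE, adjusted p = 0.574) and 1.66 ± 0.43 over 22 (adjusted p = 0.0173). Txnip had 8418, 13149 and 26649 normalized counts in Tg-TAC-MQ hearts, 7556, 11113 and 16130.3 in Tg-TAC hearts, 6202, 12036 and 31689 in Con-TAC-MQ hearts and 5652, 12981 and 17134 in Con-TAC hearts. Txnip, which binds thioredoxin, overlapped in all groups. For Txnip the interaction was 0.03 ± 0.51 over all libraries (SE, adjusted p = 0.991) and 0.18 ± 0.53 over 22 (adjusted p = 0.868). The 95% interval of Txnip ran from -0.90 to 1.26 over 22 libraries. The call of Sod2 ended without Tg-TAC 4 or Con-TAC 5, and those of Gpx3 and Nnt without both Tg-TAC 4 and Con-TAC-MQ 3 (adjusted p = 0.066 and 0.0572).

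Among 14 oxidase genes, the sources of reactive oxygen species, 10 were negative over all libraries and 11 over 22 (median -0.19 over all libraries, -0.30 to -0.07 with 1 left out, and -0.44 over 22), and 2 passed over 22, both negative (background 3.72%). They were Nox4, the constitutively active NADPH oxidase (-1.92, adjusted p = 0.0222), and Maoa, a monoamine oxidase (-0.63, adjusted p = 0.0302). Both are named because they passed there, and neither passed without Con-TAC 5. Maob had 807, 1025 and 1151 normalized counts in Tg-TAC-MQ hearts, 469.8, 622 and 1929 in Tg-TAC hearts, 708, 1491 and 2126 in Con-TAC-MQ hearts and 600.1, 1392 and 1574 in Con-TAC hearts. Maob, the other monoamine oxidase, had the opposite sign and did not pass, with an adjusted p over 22 libraries just above the threshold. For Maob the interaction was 0.29 ± 0.36 over all libraries (SE, adjusted p = 0.826) and 0.77 ± 0.25 over 22 (adjusted p = 0.05). Xdh had 2891, 2992 and 3843 normalized counts in Tg-TAC-MQ hearts, 1880.3, 2592 and 3411 in Tg-TAC hearts, 2731, 3968 and 5521 in Con-TAC-MQ hearts and 2185, 3462 and 6243 in Con-TAC hearts. Xdh, xanthine oxidase, overlapped in all groups and changed sign between the fits. For Xdh the interaction was 0.09 ± 0.32 over all libraries (SE, adjusted p = 0.948) and -0.15 ± 0.31 over 22 (adjusted p = 0.811). P4hb had 7183, 7516 and 8092 normalized counts in Tg-TAC-MQ hearts, 6496, 9757 and 10770.1 in Tg-TAC hearts, 5245, 5461 and 11358 in Con-TAC-MQ hearts and 5784, 5966 and 7469 in Con-TAC hearts. P4hb, protein disulfide isomerase, did not pass. For P4hb the interaction was -0.26 ± 0.18 over all libraries (SE, adjusted p = 0.679) and -0.41 ± 0.17 over 22 (adjusted p = 0.125).

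The cell cycle, stress response, p53 and inflammation lists had negative medians in both fits, and the share of their members called over 22 libraries differed between lists (background 4.88% positive and 3.72% negative, 8.60% together). Over 22 libraries, 2 of 31 cell cycle genes passed, both negative, with 30 of 31 negative in both fits (median -1.14 over all libraries, -1.40 to -0.65 with 1 left out, and -1.33 over 22). Cdc20 had 24.7, 46.7 and 57.5 normalized counts in Tg-TAC-MQ hearts, 55.5, 89 and 129 in Tg-TAC hearts, 30.4, 45.1 and 330.0 in Con-TAC-MQ hearts and 34, 41.3 and 58.7 in Con-TAC hearts. Cdc20, an activator of the anaphase-promoting complex, was highest in Con-TAC-MQ 3. For Cdc20 the interaction was -1.64 ± 0.52 over all libraries (SE, adjusted p = 0.533) and -1.77 ± 0.55 over 22 (adjusted p = 0.0388); the call ended in 10 of the 22 fits with 1 more library left out. The mean log2 level of the cell cycle list reached 8.56 in Con-TAC-MQ 3, against at most 7.25 in any Tg-TAC heart. Among 30 stress genes, of the integrated and the mitochondrial unfolded protein response, 21 were negative over all libraries (median -0.18 over all libraries, -0.32 to -0.11 with 1 left out, and -0.26 over 22), with 4 positive and 3 negative passing over 22, a share above the background that came to 3 genes without Tg-TAC 4. Among 19 endoplasmic reticulum chaperones 17 were negative (median -0.28 over all libraries, -0.36 to -0.12 with 1 left out, and -0.24 over 22) with 1 passing. Of 19 p53 targets 1 positive and 3 negative passed over 22, also above the background (median -0.11 over all libraries, -0.18 to 0.03 with 1 left out, and -0.23 over 22). Gadd45g had 148, 171 and 219.8 normalized counts in Tg-TAC-MQ hearts, 234, 511 and 796 in Tg-TAC hearts, 148, 165 and 787 in Con-TAC-MQ hearts and 136, 196 and 384 in Con-TAC hearts. Gadd45g, a stress-induced gene of that list, was higher in all 6 Tg-TAC hearts than in any Tg-TAC-MQ heart. For Gadd45g the interaction was -1.45 ± 0.44 over all libraries (SE, adjusted p = 0.508) and -1.83 ± 0.42 over 22 (adjusted p = 0.00901).

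Macrophage genes were negative in 22 of 28 over all libraries and 26 of 28 over 22 (median -0.24 over all libraries, -0.39 to -0.02 with 1 left out, and -0.48 over 22), with 1 passing, near the background of 3.72%. Cytokines and chemokines were negative in 25 and 27 of 31 (median -0.40 over all libraries, -0.58 to -0.14 with 1 left out, and -0.68 over 22), with 2 passing. Interferon-stimulated genes were negative in 17 and 29 of 31 (median -0.11 over all libraries, -0.41 to 0.02 with 1 left out, and -0.50 over 22), with 6 passing, all negative and above that background, and 1 without Tg-TAC 4. Immediate early genes (median -0.19 over all libraries, -0.30 to -0.08 with 1 left out, and -0.35 over 22) had 1 call over 22 libraries, heat shock genes (median 0.10 over all libraries, -0.02 to 0.19 with 1 left out, and 0.03 over 22) 0 and clock genes (median 0.01 over all libraries, -0.09 to 0.16 with 1 left out, and 0.01 over 22) 1. Heat shock genes had 2 members at an unadjusted p under 0.05 over 22 libraries. For mitochondrial dynamics and mitophagy (median 0.11 over all libraries, 0.04 to 0.19 with 1 left out, and 0.21 over 22) 3 of 31 passed, all positive (1 without Con-TAC 5), and for sirtuins and NAD metabolism (median 0.07 over all libraries, 0.02 to 0.19 with 1 left out, and 0.18 over 22) 5 positive and 1 negative of 22. The background for these calls is 4.88% of all genes positive and 3.72% negative. The 5 small nuclear and ribosomal RNA genes tested had median -0.72 over all libraries, -1.01 to -0.53 with 1 left out, and -0.67 over 22, with 0 passing and 1 at an unadjusted p under 0.05 over 22.

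Markers of cell types moved with the same contrast in part. In bulk hearts, fewer cells of a type and less RNA per cell cannot be told apart. The background for the calls over 22 libraries is 4.88% of all genes positive and 3.72% negative, 8.60% together. Cardiomyocyte markers were positive in 11 of 13 in both fits (median 0.19 over all libraries, 0.08 to 0.30 with 1 left out, and 0.31 over 22), with a mean log2 level of 16 to 16.1 in Tg-TAC-MQ hearts, 15.5 to 16.4 in Tg-TAC hearts, 15.7 to 16.3 in Con-TAC-MQ hearts and 15.8 to 16.3 in Con-TAC hearts; 4 positive and 1 negative passed over 22, and 2 in all without Con-TAC 5. Fibroblast markers were negative in 13 of 16 in both fits (median -0.16 over all libraries, -0.32 to -0.09 with 1 left out, and -0.33 over 22), with a mean log2 level of 10.8 to 11 in Tg-TAC-MQ hearts, 10.5 to 11.5 in Tg-TAC hearts, 10.1 to 11 in Con-TAC-MQ hearts and 10.2 to 11.1 in Con-TAC hearts; 3 negative and 1 positive passed over 22, and 1 in all without Tg-TAC 4. Smooth muscle and pericyte markers were negative in 9 of 13 (median -0.29 over all libraries, -0.48 to -0.18 with 1 left out, and -0.46 over 22), with 3 negative and 2 positive calls (2 in all without Tg-TAC 4), and endothelial markers had median 0.04 over all libraries, -0.02 to 0.07 with 1 left out, and 0.06 over 22 with 0 calls and 3 of 15 at an unadjusted p under 0.05. Lymphocyte (median -0.32 over all libraries, -0.71 to 0.60 with 1 left out, and -0.76 over 22), neutrophil and mast cell (median -0.45 over all libraries, -0.92 to -0.11 with 1 left out, and -0.30 over 22), adipocyte (median -1.01 over all libraries, -1.75 to -0.14 with 1 left out, and -1.77 over 22) and erythroid markers (median -0.03 over all libraries, -0.14 to 0.18 with 1 left out, and 0.04 over 22) had 0 calls in both fits, and the mean log2 level of the adipocyte list reached 11.7 in a single Tg-TAC heart. Of these 4 lists, only the neutrophil and mast cell list had a member at an unadjusted p under 0.05 over 22, with 1. Mesothelial (median -0.19 over all libraries, -0.99 to 0.49 with 1 left out, and -1.20 over 22) and Schwann cell markers (median 0.35 over all libraries, 0.22 to 0.50 with 1 left out, and 0.53 over 22) had 1 call each. The part of these markers in the matrix and fuel results was not tested.

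Outside the lists, the genes with the smallest p over all 24 libraries and a mean of at least 100 were examined. Celsr2 had 277, 295 and 345 normalized counts in Tg-TAC-MQ hearts, 63.3, 85.1 and 151 in Tg-TAC hearts, 150.0, 234 and 309.5 in Con-TAC-MQ hearts and 102, 132 and 279.9 in Con-TAC hearts. Celsr2, a cell-surface cadherin, had all Tg-TAC-MQ hearts above all Tg-TAC hearts. For Celsr2 the interaction was 1.06 ± 0.26 over all libraries (SE, adjusted p = 0.253) and 1.27 ± 0.25 over 22 (adjusted p = 0.00397); MitoQ minus vehicle over 22 libraries was 1.89 in Tg hearts (adjusted p = 2.85e-08) and 0.63 in Con hearts (adjusted p = 0.0166). Crip1 had 523, 723 and 869 normalized counts in Tg-TAC-MQ hearts, 1149, 1380.1 and 1723 in Tg-TAC hearts, 613, 724 and 931 in Con-TAC-MQ hearts and 620.4, 765 and 1094 in Con-TAC hearts. Crip1, a small LIM protein, was higher in all 6 Tg-TAC hearts than in any of the other 18. For Crip1 the interaction was -0.81 ± 0.19 over all libraries (SE, adjusted p = 0.194) and -0.92 ± 0.19 over 22 (adjusted p = 0.00478). Myl6 had 2301, 2786 and 2975 normalized counts in Tg-TAC-MQ hearts, 3399, 4563 and 5163 in Tg-TAC hearts, 2198, 2453 and 3913 in Con-TAC-MQ hearts and 2406, 2974 and 3388 in Con-TAC hearts. Myl6, a non-muscle and smooth muscle myosin light chain, had Tg-TAC hearts 1 to 5 above all other hearts. For Myl6 the interaction was -0.59 ± 0.15 over all libraries (SE, adjusted p = 0.296) and -0.68 ± 0.15 over 22 (adjusted p = 0.00712). Adpgk had 318, 338 and 376 normalized counts in Tg-TAC-MQ hearts, 369, 425 and 670.1 in Tg-TAC hearts, 315, 345 and 508 in Con-TAC-MQ hearts and 258, 294 and 383 in Con-TAC hearts. Adpgk is an ADP-dependent glucokinase whose locus overlaps Bbs4 on the other strand. For Adpgk the interaction was -0.71 ± 0.16 over all libraries (SE, adjusted p = 0.141) and -0.79 ± 0.16 over 22 (adjusted p = 0.00441). Maged2 had 516, 602 and 724 normalized counts in Tg-TAC-MQ hearts, 690.4, 825 and 935 in Tg-TAC hearts, 428, 551 and 774 in Con-TAC-MQ hearts and 426, 463 and 517 in Con-TAC hearts. In Maged2, an X-linked gene, all 6 Con-TAC hearts lay below all 6 Tg-TAC hearts. For Maged2 the interaction was -0.69 ± 0.16 over all libraries (SE, adjusted p = 0.194) and -0.65 ± 0.17 over 22 (adjusted p = 0.018). Mmp15 had 3368, 3845 and 4149 normalized counts in Tg-TAC-MQ hearts, 1143, 1779 and 4029 in Tg-TAC hearts, 1891, 3228 and 4148 in Con-TAC-MQ hearts and 1555, 3336 and 3962 in Con-TAC hearts. Mmp15, a membrane-bound metalloproteinase with the smallest p over 22 libraries and named for it, had Tg-TAC hearts 1 to 5 below every other heart except Con-TAC 6 and Con-TAC-MQ 3. For Mmp15 the interaction was 0.92 ± 0.29 over all libraries (SE, adjusted p = 0.533) and 1.33 ± 0.21 over 22 (adjusted p = 0.00243). All 6 calls over 22 held with any 1 more library left out, and that of Maged2 ended without both Tg-TAC 4 and Con-TAC-MQ 3 (adjusted p = 0.053).

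The 142 genes that differed between Tg-Sham and Con-Sham hearts (0.873% of those tested) give a view of the genotype outside TAC. These hearts had sham surgery and are outside the interaction. Of the 128 higher in Tg-Sham (0.786%), 125 had the same sign in Tg-TAC-MQ against Con-TAC-MQ (median 0.53) and 125 in Tg-TAC against Con-TAC (median 0.67), and their median interaction was -0.10 over all libraries and -0.32 over 22, with 0 and 6 calls. The 14 lower ones (0.0860%) had medians of -0.63 with MitoQ and -0.42 with vehicle and a median interaction of -0.0018 over all libraries, with 0 calls, and 0.24 over 22, with 1 call. For comparison, 8.60% of all genes tested were called in the interaction over 22 libraries. All libraries taken, Tg-TAC-MQ and Con-TAC-MQ hearts differed in 12 genes (0.0737%) and Tg-TAC and Con-TAC hearts in 1054 (6.48%). With a variance weight for each group the order turned, to 60 genes with MitoQ and 17 with vehicle.

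The 95% interval of the interaction shows what the fit could resolve, with the spread estimated over all 36 libraries, sham hearts included. No interval was computed from the TAC libraries alone. Its median half-width was 0.47 on the log2 scale over all genes and 0.35 over the 11023 genes with a mean of at least 100. In 10469 genes (64.3%) the whole interval lay within 1 log2 unit of 0, and in 87.5% of the genes with a mean of at least 100. Over 22 libraries these shares were 59.8% and 82.5%.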

How the data were processed

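Heart RNA was purified with a fibrous tissue kit and made into directional libraries, per the labels' protocols. The submitters' processing notes name Trim Galore for trimming, STAR for alignment and the mm39 build. Neither the read counter nor the normalizing tool was given in the sources used here, nor whether strand was used. The deposited values are a signal: the authors' counts divided by a factor per library. Its steps gave back whole reads for 100% of values within 0.01, and these recovered reads went into edgeR 4.0.16 (quasi-likelihood) and DESeq2 1.42.0 as alternatives.

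The test was limma 3.58.1 (R 4.3.3) on log2(value + 1), with trended and robust variance, group means fitted to all 36 libraries at once (residual degrees of freedom 30) and Benjamini-Hochberg adjustment at 0.05 over the 16275 genes that reached 10 in 6 or more libraries. Fold changes on this scale are understated for low genes. The procedure was tested on simulated data. Those counts had the same dispersion for every gene and group and no outlying library, so they say nothing on the unequal spread and outlying libraries here. P-values measure the spread between the mice of a group as deposited. Without Con-TAC 6 and Tg-TAC 6, which differ in name number, 28 degrees of freedom remain. No columns were identical, and the replicate numbers did not pair the samples.

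Members, lists and the omission of these 2 libraries were chosen with earlier results of these data known. Genes named were Sirt4, up to 10 per direction by p among means of at least 100, genes called by any tool, up to 5 by p called in both MitoQ effects in opposite directions (0 met this over all 24 libraries), up to 3 per list by p and, for the matrix, TGF-beta, fetal, antioxidant and oxidase lists, 3 by level. Postn, Col1a1, Fn1, Mmp15, mt-Co1, Ndufs1, Myh7b, Nox4, Maoa and the coenzyme Q and mitochondrial genes given with their p were named after their values were seen. Sequences are from GENCODE vM21 transcripts (GRCm38). Col4a1, Col18a1, Loxl3, Ccn2, Nppa, Pln, Aldh6a1, Adpgk, Cdc20 and Txnip overlap a gene on the other strand, and their reads could not be told apart if counting ignored strand.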

Additional observations from a re-analysis of the deposited data

Results flagged for a closer look

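For the 49 genes whose values are given, the highest or lowest heart of each TAC group of 6 was set against the nearest other heart (Dixon's criterion at the 95% level). It was met in 40 of 196 gene and group combinations, where chance gives about 1 in 20. The genes are not independent, and the values are normalized counts.

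In Con-TAC-MQ 3 the 16 values were: Col3a1 51016, Loxl3 988, Postn 10322, Ccn2 12138, Fhl1 26368, Actn1 3176, Pln 89670.3, Des 109208, Lpl 88267, Dlat 10548, Gm28437 163, mt-Co2 136, mt-Co1 1461210.0, P4hb 11358, Cdc20 330.0, Gadd45g 787. In Con-TAC 6 the 11 values were: Loxl3 919, Postn 16577, Ccn2 19860.2, Actn1 1856, Kcnj11 3460.1, mt-Co3 185, Gm28437 328, mt-Co2 320.2, Gm28661 334, Sod2 9674, Gpx3 22134. In the library labelled Tg-TAC 6 the 7 values were: Sirt4 473, Ankrd1 44114, Aldh6a1 8447, Celsr2 151, Nnt 63.6, Maob 1929, Mmp15 4029. The other values were Col18a1 864 in Tg-TAC-MQ 6, mt-Co3 227 in Tg-TAC 2, Gm10925 346 in Tg-TAC 2, Celsr2 279.9 in Con-TAC 1, Adpgk 670.1 in Tg-TAC 4, Xdh 3843 in Tg-TAC-MQ 1. In the fit over 22 libraries the MitoQ difference itself differed between the genotypes in 1400 genes (limma interaction, adjusted p under 0.05), against 0 over all 24.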

How the results depend on the processing

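The count of genes called in the interaction, 0 over all 24 libraries, was 16 with DESeq2, 159 with weights per library, 17 when the first number in the library name entered, in 3 classes, as a covariate, and 1400 without Con-TAC 6 and Tg-TAC 6. Over those 22 libraries it was 1642 with edgeR, 2119 with DESeq2, 1428 with TMM scaling, 1379 with median centring, 1478 with a pseudocount of 10, 615 with the TAC libraries alone and 527 without Tg-TAC 4 and Con-TAC-MQ 3 as well, alternatives chosen after seeing the data. Leaving out single libraries gave 0 to 23 of the 24 and 691 to 2042 of the 22. MitoQ minus vehicle in Tg hearts (2821 genes) gave 5761 with weights per library, 4873 without the 2 libraries and 2055 to 4444 with single libraries left out. MitoQ minus vehicle in Con hearts (526) gave 2870 with weights per library, 826 with DESeq2, 140 with weights per group, 225 with the name class, 323 without the filter, 298 with TAC libraries alone, 2154 without the 2 libraries and 48 to 1756 with single libraries left out. The average MitoQ effect (3851) gave 6557 with weights per library and 1596 with the name class. The average genotype effect (533) gave 4276 with weights per library, 893 with DESeq2, 1839 with the name class, 345 without the filter, 130 with TAC libraries alone, 3453 without the 2 libraries and 233 to 2239 with single libraries left out. Tg minus Con with MitoQ (12) gave 405 with weights per library, 60 with weights per group, 19 without the filter, 7 with TAC libraries alone, 28 without the 2 libraries and 7 to 64 with single libraries left out. Tg minus Con with vehicle (1054) gave 3707 with weights per library, 17 with weights per group, 3316 with the name class, 620 without the filter, 162 with TAC libraries alone, 4905 without the 2 libraries and 134 to 3642 with single libraries left out. Without Tg-TAC 4, Tg-TAC 6 and Con-TAC-MQ 5 together, 0 genes were called in the interaction. That setting gave 1145 genes for the average genotype effect, and Tg minus Con gave 24 with MitoQ and 2080 with vehicle. The cause of these differences was not tested.

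The replicate numbers did not pair the samples. With the number as a replicate block on the TAC libraries, 0 genes were called in the interaction over 24 and 405 over 22, 75 for the average genotype effect, 7 for Tg minus Con with MitoQ, 39 with vehicle and 225 for MitoQ in Con hearts. Residuals of same-numbered libraries correlated between -0.483 and 0.167.

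Without Tg-TAC 4, Tg-TAC 6 and Con-TAC-MQ 5 the interaction was -1.23 for Acta1 and -0.49 for Ankrd1. The sign of 5 uncalled interactions turned. Acta1 was -0.63 with weights per library, -0.60 with DESeq2, -0.58 with edgeR, -0.27 with the name class, -0.54 without the 2 libraries and -0.47 to 0.40 with single libraries left out. Ankrd1 was -0.15, -0.22, -0.20, -0.0937 and -0.46 under the same settings and -0.34 to 0.31 with single libraries left out. Txnip was -0.0296 with DESeq2, -0.0158 with edgeR and -0.20 to 0.27 with single libraries left out. Xdh was -0.0709 with weights per library, -0.0756 with the name class, -0.15 without the 2 libraries and -0.0728 to 0.23 with single libraries left out. Sirt4 was 0.0115 with weights per library, 0.0596 without the 2 libraries and -0.14 to -0.0202 with single libraries left out.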
